A study of Mus musculus with 14 samples.

Results

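Cytosolic ribosomal proteins were taken as the gene symbols present in both deposited tables that read Rpl or Rps followed by a number, with Rplp0, Rplp1, Rplp2 and Rpsa. Symbols holding -ps and the Rps6k kinases were left out. The rule found 89 of 55291 symbols and used no measured value. In the mouse annotation GENCODE M21, 83 of the 89 are protein-coding and 6 are processed pseudogenes that carry gene-like symbols (Rpl32l, Rpl6l, Rps12l1, Rps3a2, Rps3a3 and Rps4l). Of the protein-coding members, 51 have large-subunit and 32 small-subunit symbols. The rule does not take some further proteins of the same ribosome, of which Fau, Rack1 and Rpl36al are described apart.

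Messenger RNA was measured by poly(A)-selected RNA sequencing in 14 mouse libraries of 2 experiments. In the first, whole splenocytes of OT-1 mice, a strain with a transgenic T cell receptor for an ovalbumin peptide, were activated with 1 µg/mL of that peptide in 200 U/mL interleukin-2 for 3 days and expanded for 4 more. The cultures received 100 nM ND-646 (4 libraries), which blocks acetyl-CoA carboxylase, the enzyme that makes malonyl-CoA for fatty acid synthesis, or the DMSO vehicle (4 libraries). In the second, CD8+ T cells were enriched and sorted from MCA205 fibrosarcomas (3 libraries) and from spleens (3 libraries) of C57BL/6 mice 14 days after the tumour cells were injected under the skin. The genotype label of all 14 libraries is WT, and the second experiment had no drug. Per the labels the tumour samples were pools, of an unstated number of mice or tumours, and it is not stated whether libraries of a group came from separate mice or cultures.

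The ribosome is the particle of ribosomal RNA and proteins that translates mRNA. Its small subunit reads the codons and its large subunit joins the amino acids, and nearly every protein is present as a single copy, so cells hold the proteins in nearly equal numbers. Most ribosomal protein mRNAs begin with a C followed by a run of C and T, the terminal oligopyrimidine tract, through which the growth-regulating kinase mTORC1 controls their translation. In T cells, activation is known for a large increase in ribosome production. A few members have paralogs with restricted expression or with functions outside the ribosome.

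Start sites of 7 members are shown because their mRNAs stand at the ends of the changes described below: Rps27, Rps24 and Rpl12 rose with ND-646 and were among the lowest in tumours, Rpl28 was lowest with ND-646, and Rps2, Rpl7l1 and Rps27l departed from the rest in tumours. Each window holds 30 bases before the start and 20 from it on, from RefSeq promoters on GRCm38.p6, and capitals mark the longest run of C and T touching the 5 bases on either side of the start. The windows lie at chr3:90213629-90213678 on the minus strand (Rps27), chr14:24490648-24490697 plus (Rps24), chr2:32961682-32961731 plus (Rpl12), chr7:4792935-4792984 plus (Rpl28), chr17:24720033-24720082 plus (Rps2), chr17:46782637-46782686 minus (Rpl7l1) and chr9:66946056-66946105 plus (Rps27l). Rps24 and Rps27l each have 2 listed starts, of which that with the longer run is printed.
Rps27: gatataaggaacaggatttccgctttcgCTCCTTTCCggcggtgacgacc
Rps24: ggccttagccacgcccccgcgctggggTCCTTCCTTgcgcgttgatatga
Rpl12: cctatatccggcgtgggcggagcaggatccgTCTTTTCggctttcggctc
Rpl28: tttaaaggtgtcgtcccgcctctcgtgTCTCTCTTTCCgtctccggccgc
Rps2: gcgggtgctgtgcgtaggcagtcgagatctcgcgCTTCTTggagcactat
Rpl7l1: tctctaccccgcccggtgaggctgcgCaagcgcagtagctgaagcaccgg
Rps27l: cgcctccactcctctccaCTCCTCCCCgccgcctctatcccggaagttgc
The run was 9 bases long at Rps27, Rps24 and Rps27l, 11 at Rpl28, 7 at Rpl12, 6 at Rps2 and 1 at Rpl7l1. It spanned the start at Rps27, Rps24 and Rpl28 and lay wholly after the first transcribed base at Rpl12 and Rps2. At Rps27l and Rpl7l1 it lay wholly before the printed start, outside an mRNA that begins there. A run counted here is thus not always a terminal oligopyrimidine tract. Of the 89 members, 64 have a RefSeq promoter. A run of at least 6 bases at the start was found in 33 of these 64 members (51.6%) and in 23.0% of 27025 genes with a promoter.

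Short motifs were searched on both strands from 250 bases before to 50 after the start, as letters only, and none of the 3 contains another. The ETS motif CCGGAAG was present in 40.6% of the members and 9.93% of all genes. The SP1 motif GGGCGG was present in 60.9% of the members and 38.2% of all genes. The YY1 motif AAGATGG was present in 15.6% of the members and 7.28% of all genes. These shares describe sequence and say nothing about binding of the factors.

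Reads of these genes are shared with many pseudogene copies. Among GENCODE M21 transcripts, 561 copies matched a member's coding sequence at 95% identity or more over at least 50% of it. These copies held little of the data: 0.104 to 0.114% of counts in ND-646, 0.0968 to 0.104% in vehicle, 0.0588 to 0.0642% in tumour and 0.0982 to 0.1% in spleen libraries. Per member, the copies' share of the sum of member and copies had a median of 0.491% in the first experiment and 0.435% in the second. It was over 5% for 1 member, Rps23, at 5.85% in the first experiment. Estimated counts split such reads by a model, so the annotated pseudogenes among the members are uncertain.

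Library totals ran from 27.9 to 33.8 M estimated counts in ND-646, 23.5 to 29.0 M in vehicle, 19.6 to 21 M in tumour and 19.8 to 20.8 M in spleen libraries (M, 1e+06). A list of 20 genes, called CD8 T cell identity genes here, holds Cd8a and Cd8b1 beside genes that other T cells also express. Examples of the latter are Cd3e, Trac, Cd27, Cd28 and Ptprc, so the sum does not tell CD8 cells from other T cells. The summed level of the list was 8373 to 8613 counts per 1e+06 (CPM) in ND-646 and 8461 to 8647 CPM in vehicle cultures. It was 6059 to 8067 CPM in tumour and 13222 to 13326 CPM in spleen libraries. Tumour libraries also held mRNA of fibroblast and fibrosarcoma genes: all 19 tested of 20 listed genes were higher, with a summed level of 12526 to 18065 CPM, against 2.19 to 18.9 CPM in spleen libraries. Of all genes tested, 43.6% were called higher in tumour libraries. B cell genes summed to 59.8 to 75.7 CPM in tumour and 836 to 872 CPM in spleen libraries. Macrophage, monocyte and neutrophil markers summed to 36.8 to 57.1 CPM in tumour and 15.5 to 19.4 CPM in spleen libraries. CD4 and regulatory T cell markers summed to 41.7 to 46.3 CPM in tumour and 5.14 to 8.34 CPM in spleen libraries. NK cell markers summed to 83.8 to 96.7 CPM in tumour and 106 to 115 CPM in spleen libraries, though 5 of 6 tested were higher in tumour libraries. Within the ND-646 group, the counts of libraries 1 and 4 and those of libraries 2 and 3 were alike (ratio of chi-square to its degrees of freedom 5.07 and 3.65), and the other 4 pairings were farther apart (7.37 to 11.3). Values without each pair are given where they change a result. The same ratio was 18.3 for tumour libraries 1 and 2, 10.9 for 1 and 3 and 7.19 for 2 and 3. It was 3.09 to 7.11 for pairs of vehicle libraries and 2.33 to 3.62 for pairs of spleen libraries.

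The cultures began as whole splenocytes, and markers of other cells, most of them at low levels, differed between the groups there. NK cell markers summed to 15.1 to 16.8 CPM in ND-646 and 46.5 to 51.4 CPM in vehicle cultures (4 of 5 tested fell). Macrophage, monocyte and neutrophil markers summed to 10.2 to 13.1 CPM in ND-646 and 24.3 to 28.5 CPM in vehicle cultures (4 of 5 tested fell). Of 7 tested B cell markers, 6 fell. Ighm, the immunoglobulin heavy chain, rose, at 162 ± 11.2 CPM in ND-646 and 115 ± 7.11 CPM in vehicle cultures (SD, n = 4 each). Of 4 CD4 and regulatory T cell markers, Cd4, Cd40lg and Foxp3 fell and Zbtb7b rose. Their summed level was higher with ND-646, at 149 to 164 CPM, against 117 to 127 CPM in vehicle cultures. Beside these counts, 26.5% of all genes tested were called lower and 29.8% higher with ND-646. The part of the other cells in the ribosomal protein values was not tested.

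Ribosomal protein mRNAs were among the most abundant in every library. In ND-646 libraries 1 to 4 they made up 11.3, 10.4, 10.1 and 10.7% of all counts (mean 10.6 ± 0.494%, SD, n = 4). In vehicle libraries they made up 9.95, 10.3, 10.1 and 10.1% (10.1 ± 0.152%, SD, n = 4). The ranges of these 2 groups overlapped. Tumour libraries gave 7.00, 6.41 and 6.64% of counts to the members (6.68 ± 0.298%, SD, n = 3), against 11.2, 11.4 and 11.5% in spleen libraries (11.3 ± 0.147%, SD, n = 3). Every tumour library lay below every spleen library, and the difference of the means was -4.64 percentage points. Large-subunit symbols held 3.89 ± 0.169% of counts in tumour and 6.45 ± 0.0916% in spleen libraries (SD, n = 3 each). Small-subunit symbols held 2.79 ± 0.131% in tumour and 4.87 ± 0.056% in spleen libraries (SD, n = 3 each). In bulk RNA, fewer cells of a type and less of an mRNA per cell cannot be told apart.

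**Figure D1:**
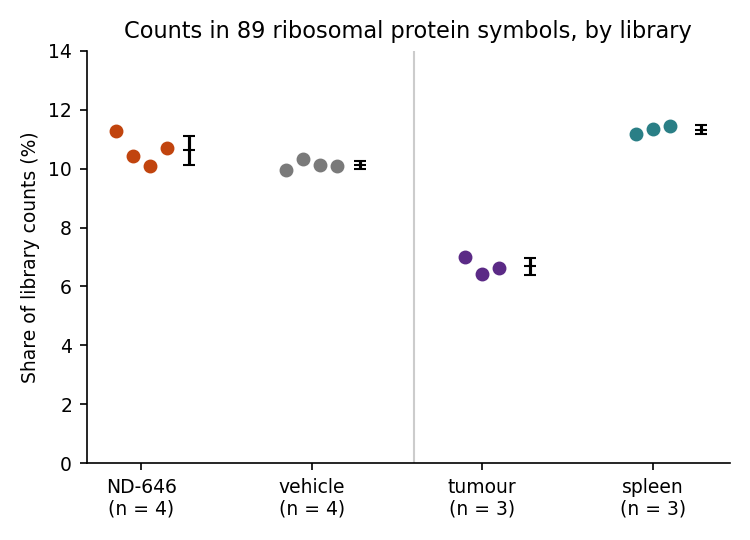
Share of each library's estimated counts in the 89 ribosomal protein symbols (percent, vertical axis) by group. Points are libraries and the black marks show the mean ± SD. ND-646 (10.1 to 11.3%) and vehicle libraries (9.95 to 10.3%) overlap, and all 3 tumour libraries (6.41 to 7.00%) lie below all 3 spleen libraries (11.2 to 11.5%).

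Levels per kilobase of coding sequence were compared for the 77 protein-coding members that are no paralogs and were tested. The median level was 2338 CPM per kb in ND-646, 2410 in vehicle, 1595 in tumour and 2715 in spleen libraries. The quartiles were 1732 and 3512 CPM per kb in ND-646, 1888 and 3165 in vehicle, 1270 and 1907 in tumour, and 1996 and 3566 in spleen libraries. Rpl41, whose coding sequence of 75 bases is far shorter than its mRNA, was highest in all 4 groups on this scale, at 14406 CPM per kb in ND-646, 16470 in vehicle, 10064 in tumour and 12442 in spleen libraries. Dividing by coding length overstates such a gene. Rplp1, an acidic protein of the stalk that recruits the translation factors, was second in ND-646 (5463 CPM per kb), vehicle (4640) and spleen (7145) libraries. In tumour libraries it stood at 3017 CPM per kb, below Rps2 at 3142. Rps14, a small-subunit protein, was near it in the cultures, at 4874 CPM per kb in ND-646 and 4293 in vehicle libraries. Rpl13a, known also for a role in translational silencing after interferon, stood at 2874 CPM per kb in tumour and 5239 in spleen libraries, the third highest level in spleen libraries. The lowest level was that of Rpl22 in tumour libraries (680 CPM per kb) and of Rpl24 in spleen libraries (1167 CPM per kb).

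The first comparison asked how the inhibitor altered these mRNAs in activated cultures. Ribosomal protein mRNAs moved in both directions by small amounts. Of 84 tested members, 30 rose, 26 fell and 28 did not pass the test (edgeR's quasi-likelihood test with Benjamini-Hochberg adjustment over 14251 genes). Of all genes tested, 29.8% were called higher and 26.5% lower (56.3% in all), against 35.7% and 31.0% of the members (66.7% in all). Most members are abundant, and of 4472 tested genes with at least 50 mean CPM, 1490 were called higher and 1509 lower. The other 1473 were not called, a share near that of the members (28 of 84). The median log2 fold change of the members was 0.01, as was that of all genes, and the members ran from -0.53 to 0.47. When the test asked for a change beyond 1.2-fold, 3 members rose and 9 fell, where the background was 11.8% and 12.0% of genes. The median was 0.07 without ND-646 libraries 2 and 3 and -0.05 without libraries 1 and 4, and of the 56 calls 52 and 49 were kept, with no call turned round.

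The libraries of the groups did not overlap for 29 members that were higher with ND-646 and 23 that were lower, together 61.9% of those tested. The background was 27.0% of genes higher and 24.1% lower (51.1% in all). Among the 4472 tested genes with at least 50 mean CPM, 1376 were higher and 1405 lower without overlap. Together this is a share near that of the members. Both subunits held members of either direction. Among 49 large-subunit members, 16 rose and 14 fell, with a median log2 fold change of -0.01. Among 32 small-subunit members, 14 rose and 11 fell, with a median of 0.05.

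Rpl12, a protein at the base of the stalk, had the highest log2 fold change of the called members. It stood at 2582, 2367, 2211 and 2393 CPM in ND-646 libraries, against 1762, 1848, 1807 and 1771 CPM in vehicle libraries. Every ND-646 library was above every vehicle library, and the log2 fold change was 0.41 ± 0.04 (SE; adjusted p = 2.69e-07). Rplp2 and Rplp1, the acidic stalk proteins that Rpl12 sits beside, rose too, by 0.26 ± 0.05 and 0.24 ± 0.05 on the log2 scale. Rplp2 stood at 1107, 990, 933 and 1023 CPM in ND-646 libraries, against 820, 858, 838 and 863 CPM in vehicle libraries. Rplp1 stood at 2019, 1788, 1760 and 1906 CPM in ND-646 libraries, against 1510, 1647, 1586 and 1605 CPM in vehicle libraries. The groups did not overlap for either. Rplp0, the protein that anchors the acidic pairs, had 3526, 3454, 3320 and 3330 CPM in ND-646 and 3362, 3525, 3437 and 3414 CPM in vehicle libraries. These overlapped, and the log2 fold change of -0.01 (adjusted p = 0.811) had a 95% interval of -0.09 to 0.07.

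Small-subunit members supplied the next values. Rps24, whose gene is mutated in some human patients with Diamond-Blackfan anaemia, an inherited failure of red cell production, stood at 2162, 1966, 1882 and 2030 CPM in ND-646 libraries, against 1510, 1546, 1577 and 1446 CPM in vehicle libraries. Its log2 fold change was 0.40 ± 0.04 (adjusted p = 3.92e-07). Rps12 stood at 1699, 1505, 1453 and 1644 CPM in ND-646 libraries, against 1225, 1222, 1228 and 1221 CPM in vehicle libraries, a log2 fold change of 0.36 ± 0.05. Rps27, a zinc-binding protein on the surface of the small subunit, stood at 969, 876, 873 and 896 CPM in ND-646 libraries, against 686, 740, 736 and 698 CPM in vehicle libraries, a log2 fold change of 0.34 ± 0.04. In all 3 genes the lowest ND-646 library was above the highest vehicle library. Rpl12, Rps24 and Rps12 were the 3 members that rose beyond 1.2-fold.

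Among the members that fell, Rpl28 of the large subunit was lowest. It stood at 714, 616, 615 and 709 CPM in ND-646 libraries, against 910, 1005, 925 and 984 CPM in vehicle libraries. ND-646 libraries 1 and 4 were above 2 and 3, and all 4 were below every vehicle library. The log2 fold change was -0.53 ± 0.05 (adjusted p = 5.73e-07). Rpl37a, a zinc-binding large-subunit protein, had 504, 506, 469 and 433 CPM in ND-646 libraries, against 648, 681, 654 and 686 CPM in vehicle libraries (log2 fold change -0.48 ± 0.05). Here libraries 1 and 2 were highest within the ND-646 group, and the groups did not overlap. Rps26, which lies where mRNA leaves the small subunit, fell by 0.41 ± 0.05 on the log2 scale, as did Rps3a1 (± 0.04). Rps25, known for its part in initiation at some internal entry sites, fell by 0.36 ± 0.04. Among the 9 that fell beyond 1.2-fold were Rpl28, Rpl37a, Rps26, Rps3a1, Rps25, Rpl11, the paralog Rps27l and the pseudogene Rps3a2.

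Rpl11 and Rpl5, which bind 5S ribosomal RNA together and in free form bind the p53 inhibitor Mdm2, differed. Rpl11 had 825, 794, 761 and 761 CPM in ND-646 libraries, against 1035, 1073, 1029 and 1033 CPM in vehicle libraries. It fell in every ND-646 library, with a log2 fold change of -0.41 ± 0.04 (adjusted p = 4.63e-08), the smallest p of any member. Rpl5 had 2456, 2263, 2173 and 2252 CPM in ND-646 and 2222, 2287, 2255 and 2175 CPM in vehicle libraries, which overlapped (log2 fold change 0.03 ± 0.04, adjusted p = 0.52, 95% interval -0.05 to 0.12). Those intervals, -0.49 to -0.33 for Rpl11 and -0.05 to 0.12 for Rpl5, do not meet. Rps6, the small-subunit protein that S6 kinase phosphorylates downstream of mTORC1, had a log2 fold change of 0.05 ± 0.04 (adjusted p = 0.351). Rpsa, which also serves as a precursor of a laminin receptor, was 4210, 3983, 3799 and 3838 CPM in ND-646 and 3491, 3682, 3612 and 3602 CPM in vehicle libraries. It rose by 0.14 ± 0.04 on the log2 scale, without overlap.

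**Figure D2:**
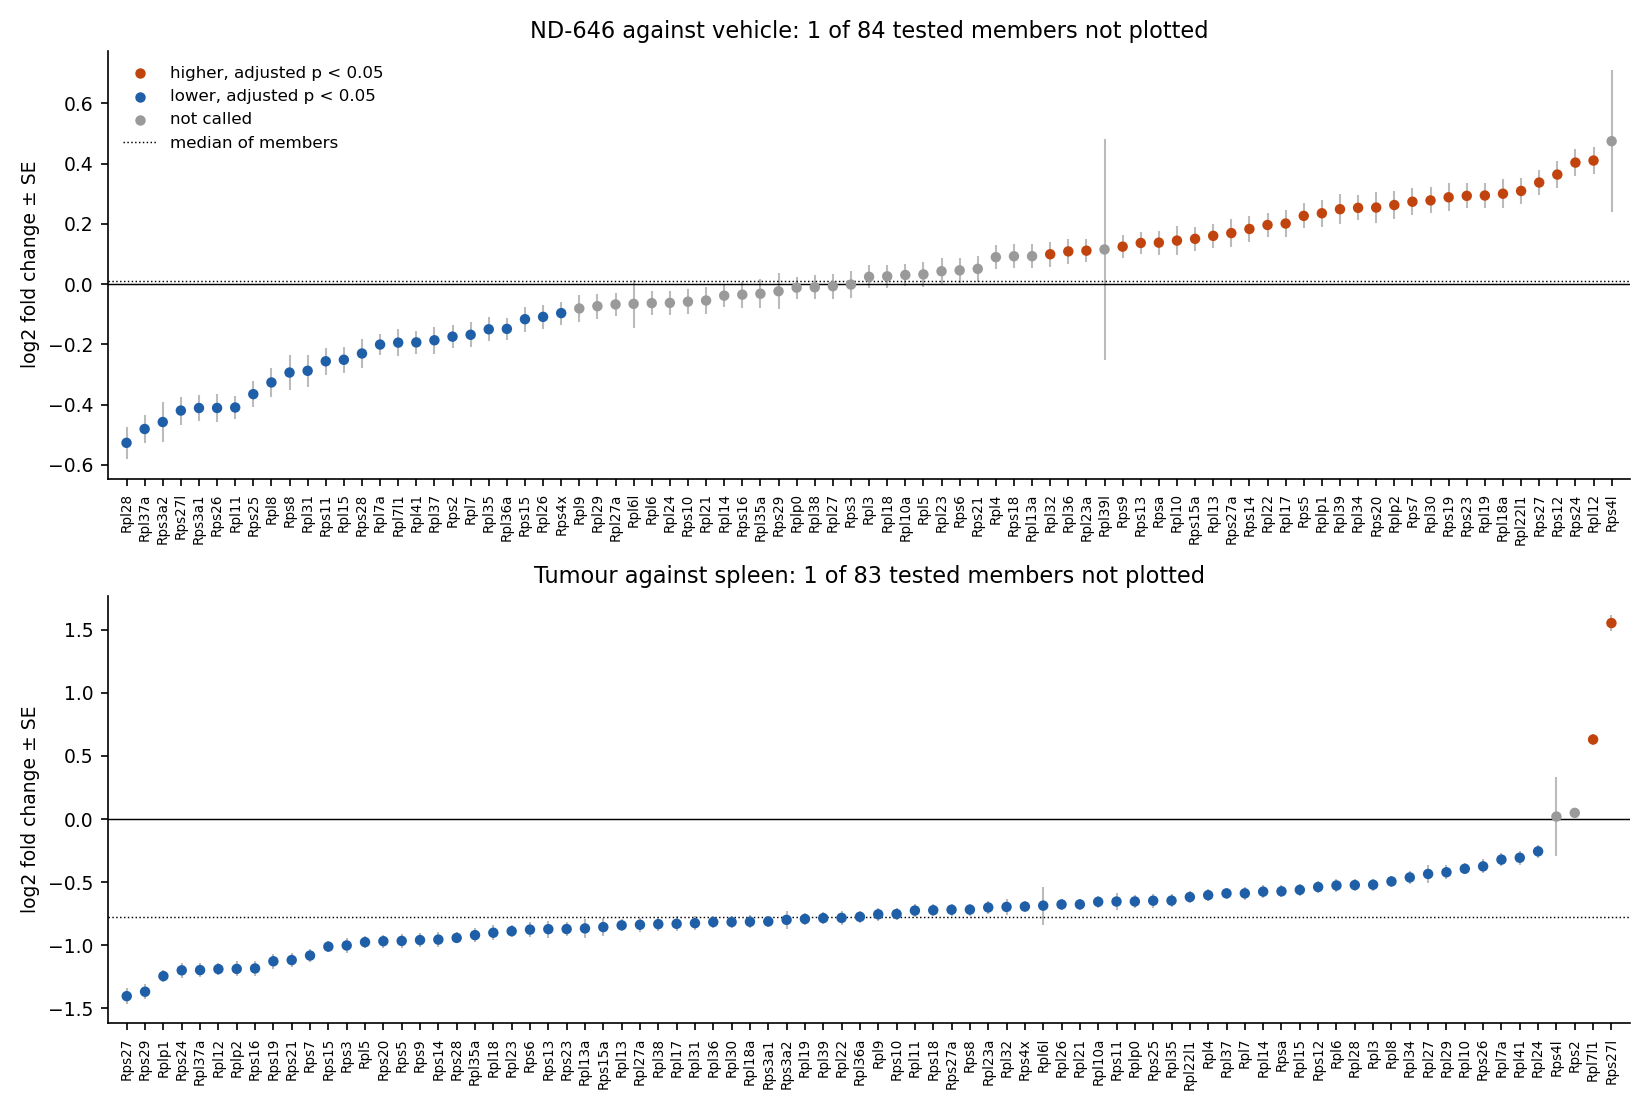
Log2 fold change ± SE of the tested members except 1, in order, for ND-646 against vehicle (upper plot, 84 tested) and tumour against spleen (lower plot, 83 tested), with TMM scaling. Red and blue mark members called higher and lower, grey those not called, and the dotted line the members' median. With ND-646 the members lie on both sides of 0 (median 0.01), while in tumours nearly all lie below 0 and Rpl7l1 and Rps27l stand above it (median -0.77; scaled by CD8 identity genes, 0.14).

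The second comparison asked how CD8+ cells from tumours differed from those of spleens. With TMM scaling, which sets the bulk of genes equal, ribosomal protein mRNAs were lower as a family in tumour libraries, and under scaling by CD8 identity genes this direction was lost. Of 83 tested members, 79 fell, 2 rose (Rps27l and Rpl7l1) and 2 did not pass the test (Rps2 and the pseudogene Rps4l), in edgeR's quasi-likelihood test over 15042 genes. Of all genes tested, 40.2% were called lower and 43.6% higher (83.8% in all), against 95.2% and 2.41% of the members. The median log2 fold change was -0.77 for the members, 0.585-fold, and 0.03 for all genes. Tumour and spleen libraries did not overlap for 79 members that were lower and 3 that were higher, where the background was 41.6% lower and 44.6% higher (86.2% in all). Beyond 1.2-fold, 76 members fell and 2 rose, where 34.3% of all genes were lower and 38.8% higher.

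Since the tumour libraries held less mRNA of CD8 identity genes and more of fibroblast genes, the comparison was repeated with libraries scaled to the 20 CD8 identity genes, of which 19 had fallen with a median log2 fold change of -0.97. That scaling moved the median of all genes to 0.94. The median of the members became 0.14, with 29 members higher and 8 lower, where 67.8% of all genes were called higher and 13.0% lower under the same scaling (80.8% in all). Such a scaling moves every gene by nearly the same amount, so it changes directions and calls but not the order of the members or their distance from all genes. Of the 81 calls, 10 were kept in the same direction, 46 were lost and 25 turned round. The part of fibroblast and other mRNA in the TMM-scaled decrease was not tested. Whether the 20 genes, most of them not particular to CD8 cells, kept their level per cell in tumours was not tested either.

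**Figure D3:**
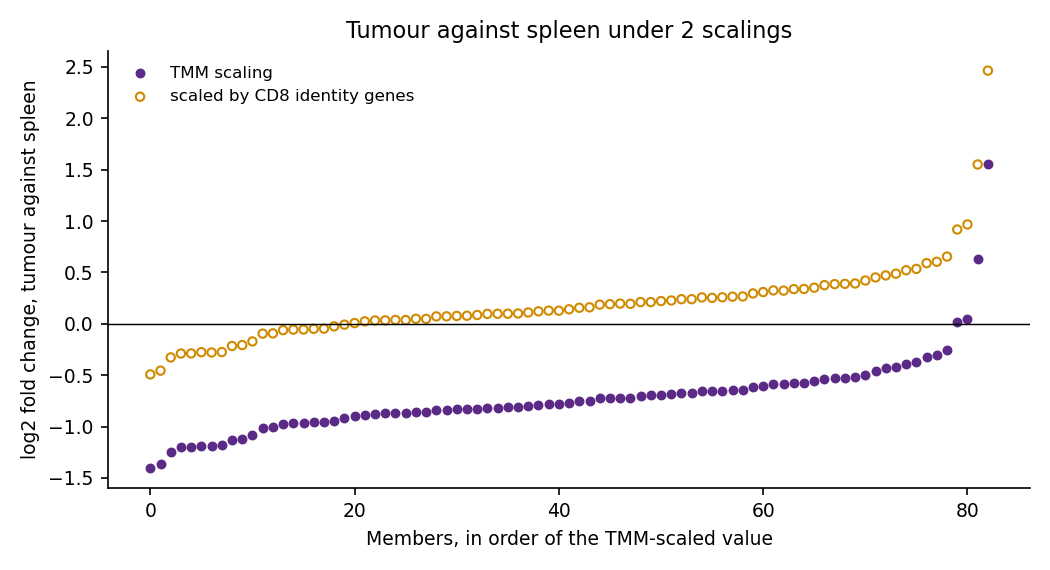
Log2 fold change of the 83 tested members for tumour against spleen, in order of the TMM-scaled value, with TMM scaling (filled) and after scaling by CD8 identity genes (open). The median was -0.77 with TMM scaling and 0.14 with CD8 identity scaling. The change of scaling moves all members by nearly the same amount, which leaves their order as it is.

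The 8 members that fell under both scalings were Rps27, Rps29, Rplp1, Rps24, Rpl37a, Rplp2, Rpl12 and Rps16. They are the members with the lowest values, an order that the change of scaling cannot alter. Rps27 had 468, 422 and 404 CPM in tumour libraries, against 1126, 1120 and 1174 CPM in spleen libraries, a log2 fold change of -1.40 ± 0.06 (adjusted p = 3.37e-08). All tumour libraries were below all spleen libraries, and with CD8 identity scaling the value was -0.49. Rps29, also a zinc-binding small-subunit protein, had 305, 281 and 268 CPM in tumour libraries, against 725, 756 and 724 CPM in spleen libraries (log2 fold change -1.37 ± 0.06; -0.46 with CD8 identity scaling). The order of the groups was the same as for Rps27, without overlap. Rps24 had 788, 698 and 711 CPM in tumour libraries, against 1637, 1677 and 1725 CPM in spleen libraries (log2 fold change -1.20 ± 0.06; -0.29 with CD8 identity scaling). Rpl37a had 476, 415 and 442 CPM in tumour libraries, against 1026, 1017 and 1012 CPM in spleen libraries (-1.20 ± 0.06 and -0.29). For both genes every tumour library was below every spleen library.

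The stalk members differed in the size of their decrease. Rplp1 had 1060, 1044 and 991 CPM in tumour libraries, against 2390, 2495 and 2446 CPM in spleen libraries, a log2 fold change of -1.24 ± 0.05 (adjusted p = 1.47e-08). Rplp2 had 542, 469 and 507 CPM in tumour libraries, against 1152, 1146 and 1160 CPM in spleen libraries (-1.19 ± 0.06). Rpl12 had 992, 918 and 922 CPM in tumour libraries, against 2162, 2134 and 2159 CPM in spleen libraries (-1.19 ± 0.05). All 3 were lower in every tumour library than in any spleen library and kept their direction with CD8 identity scaling, at -0.33, -0.28 and -0.28. Rplp0 had 2652, 2392 and 2543 CPM in tumour libraries, against 3964, 3958 and 4006 CPM in spleen libraries, a log2 fold change of -0.65 ± 0.05, which became 0.26 with CD8 identity scaling. The 95% interval of Rplp0 with TMM scaling, -0.76 to -0.54, did not meet those of Rplp1 (-1.35 to -1.14), Rplp2 (-1.32 to -1.05) or Rpl12 (-1.30 to -1.08).

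The 5S partners and the remaining named members followed the family with TMM scaling. Rpl5 had 1245, 1166 and 1199 CPM in tumour libraries, against 2356, 2347 and 2392 CPM in spleen libraries (log2 fold change -0.97 ± 0.05; -0.06 and no longer called with CD8 identity scaling). Rpl11 had 731, 669 and 687 CPM in tumour libraries, against 1139, 1155 and 1155 CPM in spleen libraries (-0.72 ± 0.05; 0.19 with CD8 identity scaling). Groups did not overlap for either. Rps6 had a log2 fold change of -0.88 ± 0.06 and Rpsa of -0.57 ± 0.05, which became 0.03 and 0.34 with CD8 identity scaling. The small-subunit members had a median of -0.87 (1 rose and 30 fell of 32) and the large-subunit members of -0.70 (1 rose and 47 fell of 48). Rpl24 and Rpl41 had the smallest decreases, with log2 fold changes of -0.26 ± 0.05 and -0.31 ± 0.06, which became 0.65 and 0.60 with CD8 identity scaling.

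Rps2, a small-subunit protein near the channel by which mRNA enters, was the protein-coding member that did not pass the test with TMM scaling. It had 2766, 2784 and 2735 CPM in tumour libraries, against 2652, 2666 and 2690 CPM in spleen libraries. All tumour libraries were above all spleen libraries by a small margin, with a log2 fold change of 0.05 ± 0.04 (adjusted p = 0.278). With CD8 identity scaling it was called higher, at 0.97 (adjusted p = 4.42e-06), where 67.8% of all genes were. That value is near the median of all genes under that scaling, given above. With TMM scaling the 95% interval of Rps2, -0.04 to 0.14, did not hold the members' median of -0.77. Rps2 was named for its place among the highest values, so this distance follows from the choice. Rps2 has 26 near-identical copies in the annotation, which held 1.42% of the summed counts in this experiment. In the cultures it had 2986, 2863, 2752 and 2855 CPM with ND-646, against 3210, 3320, 3132 and 3263 CPM with vehicle, a log2 fold change of -0.17 ± 0.04.

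Rps27l and Rps27 are a paralog pair of equal length whose coding sequences differ at many positions. They are shown because their mRNAs changed in opposite directions in both experiments. Over 252 coding bases without the stop codon, 192 (76.2%) were identical in the GENCODE M21 transcripts, and capitals mark the 60 that differ.
Rps27l: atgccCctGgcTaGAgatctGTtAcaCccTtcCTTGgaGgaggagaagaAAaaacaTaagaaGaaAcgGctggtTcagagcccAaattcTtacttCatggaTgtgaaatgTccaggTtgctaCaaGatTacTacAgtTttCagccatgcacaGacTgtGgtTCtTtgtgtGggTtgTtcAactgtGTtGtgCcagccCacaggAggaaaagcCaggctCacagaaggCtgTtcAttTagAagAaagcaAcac
Rps27: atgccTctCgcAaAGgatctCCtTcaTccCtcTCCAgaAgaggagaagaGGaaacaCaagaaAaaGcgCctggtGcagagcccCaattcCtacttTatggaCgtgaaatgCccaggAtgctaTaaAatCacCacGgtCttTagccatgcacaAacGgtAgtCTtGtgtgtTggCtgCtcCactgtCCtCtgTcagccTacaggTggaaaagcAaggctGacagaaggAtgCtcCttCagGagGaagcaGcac
RPS27L is known in human cells as a target of p53. Rps27l had 58.0, 53.5 and 55.6 CPM in tumour libraries, against 19.7, 18.3 and 18.9 CPM in spleen libraries. Each tumour library was well above each spleen library, with a log2 fold change of 1.55 ± 0.06 (adjusted p = 2.09e-08), or 2.46 with CD8 identity scaling. In cultures it had 130, 117, 118 and 125 CPM with ND-646, against 163, 179, 158 and 156 CPM with vehicle, a log2 fold change of -0.42 ± 0.05 without overlap. As a percentage of Rps27 in the same library, Rps27l was 13.6 ± 0.255% in ND-646 and 22.9 ± 1.28% in vehicle cultures (SD, n = 4 each). It was 13.0 ± 0.708% in tumour and 1.67 ± 0.0748% in spleen libraries (SD, n = 3 each), a ratio that does not depend on the scaling.

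Rpl7l1, the paralog of Rpl7, rose in tumour libraries under both scalings. It had 101, 106 and 104 CPM in tumour libraries, against 66.0, 67.9 and 66.8 CPM in spleen libraries (log2 fold change 0.63 ± 0.05; 1.55 with CD8 identity scaling). Rpl7 had 1177, 1072 and 1122 CPM in tumour libraries, against 1648, 1699 and 1722 CPM in spleen libraries (-0.59 ± 0.05; 0.32 with CD8 identity scaling). Their ratio was 9.23 ± 0.653% in tumour and 3.96 ± 0.07% in spleen libraries (SD, n = 3 each), and the groups did not overlap. In cultures both fell with ND-646, by 0.19 ± 0.04 and 0.17 ± 0.04 on the log2 scale, and the ratio was 4.93 ± 0.0937% with ND-646 and 5.01 ± 0.183% with vehicle (SD, n = 4 each).

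Rpl22l1 is the paralog of Rpl22, a large-subunit protein required for the development of T cells in mice that is also known there to repress Rpl22l1. Rpl22l1 had 128, 123, 114 and 119 CPM in ND-646 libraries, against 93.3, 100, 102 and 95.5 CPM in vehicle libraries (log2 fold change 0.31 ± 0.04). Rpl22 had 710, 694, 652 and 657 CPM in ND-646 libraries, against 587, 607, 597 and 577 CPM in vehicle libraries (0.20 ± 0.04). Both rose without overlap, and the ratio was 17.9 ± 0.287% with ND-646 and 16.5 ± 0.502% with vehicle (SD, n = 4 each). In tumours both fell with TMM scaling, by 0.62 ± 0.05 (Rpl22l1) and 0.78 ± 0.05 (Rpl22) on the log2 scale, and with CD8 identity scaling the values were 0.30 and 0.13. The ratio was 35.4 ± 0.956% in tumour and 31.5 ± 0.592% in spleen libraries (SD, n = 3 each).

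**Figure D4:**
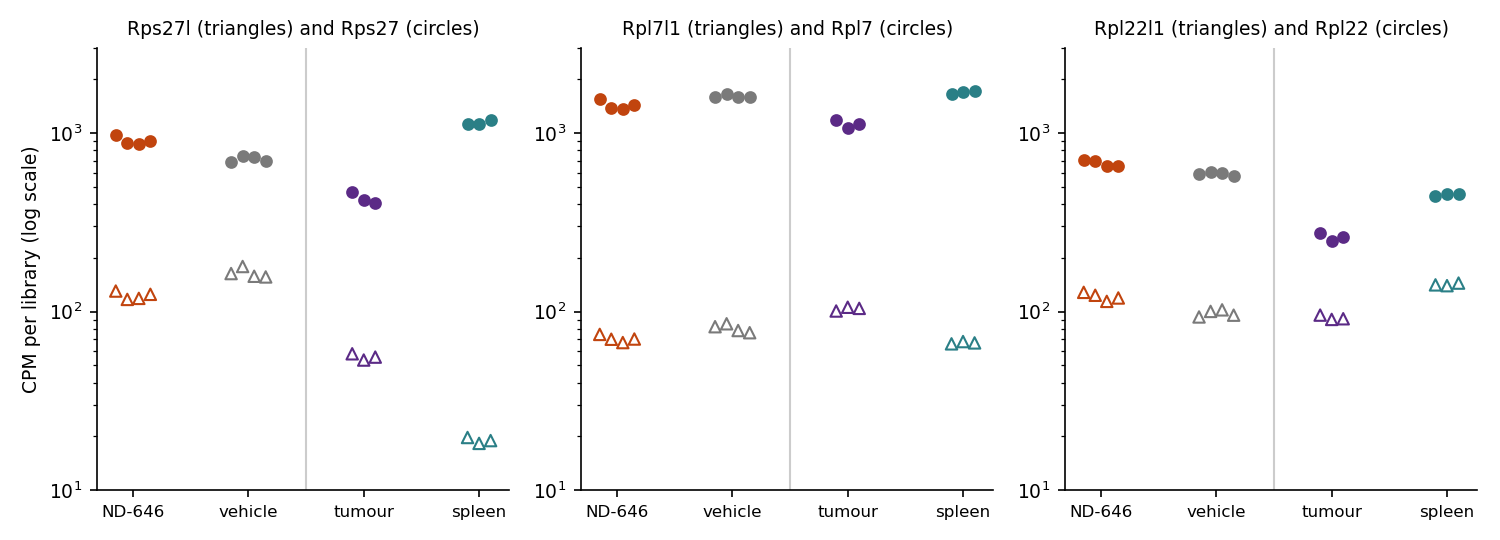
Level of 3 paralogs (open triangles) and their parent genes (filled circles) in each library, in CPM on a log scale. Rps27l lies between 53.5 and 58.0 CPM in tumour libraries and between 18.3 and 19.7 CPM in spleen libraries, while Rps27 is lower in tumour libraries than in spleen libraries, also with CD8 identity scaling.

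The other paralogs were near the limit of detection. Rpl39l, a paralog of Rpl39 known in mice from the testis, had 0.318 to 0.602 CPM in ND-646 and 0.164 to 0.665 CPM in vehicle cultures (log2 fold change 0.12 ± 0.37, adjusted p = 0.811). It had 41 counts in all over the 6 libraries of the second experiment and was not tested there. Rpl10l, also known from the testis, had 0 counts in the first experiment and 2 in the second, and Rpl3l, known from heart and skeletal muscle, had 1 in each. A count of 0 allows up to 3 counts per library, which correspond to 0.0878 to 0.154 CPM and cover counting error only. Of the pseudogene members, Rps12l1 had 0 counts in both experiments, Rpl32l had 4 and 1, and Rps3a3 had 65.2 and 24.7 estimated counts in all. Rps4l had 1.37, 1.05, 0.882 and 1.42 CPM in ND-646 libraries, against 0.860, 1.09, 0.645 and 0.767 CPM in vehicle libraries (log2 fold change 0.47 ± 0.24, adjusted p = 0.0959). Rps3a2, at 13.6 to 16.3 CPM in ND-646 and 19.8 to 22.2 CPM in vehicle libraries, moved like its parent Rps3a1 (-0.46 ± 0.07 against -0.41 ± 0.04 on the log2 scale), and reads may be shared between them.

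Set side by side, the 2 comparisons, which share no libraries, gave different calls for many members. All 30 members that rose with ND-646 were among the 79 that fell in tumours with TMM scaling (100% of the first list and 38.0% of the second). Of the 26 that fell with ND-646, 23 fell in tumours (88.5%, and 29.1% of the 79), 2 rose (Rps27l and Rpl7l1) and Rps2 was not called. With 79 of 83 tested members lower in tumours, these overlaps are set largely by that count. Over 80 protein-coding members, the log2 fold changes of the 2 comparisons had a Pearson correlation of -0.39 and a Spearman correlation of -0.42. Without the paralogs these were -0.36 and -0.41 over 77 members. Genes are not independent replicates, and both values of a gene share its annotation and its pseudogene copies. At one end stood Rps27, Rps24, Rpl12, Rplp1 and Rplp2, high with ND-646 and among the lowest in tumours. Other members did not go with this. Rps29 (-1.37 in tumours) stood at 305 ± 30.5 CPM with ND-646 and 310 ± 11.1 CPM with vehicle. Rps16 (-1.18 in tumours) stood at 1427 ± 70.7 and 1462 ± 61.3 CPM (SD, n = 4 each). Rps12, at 0.36 with ND-646, had a tumour value of -0.54, above the members' median of -0.77. Rpl37a was low in both comparisons.

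**Figure D5:**
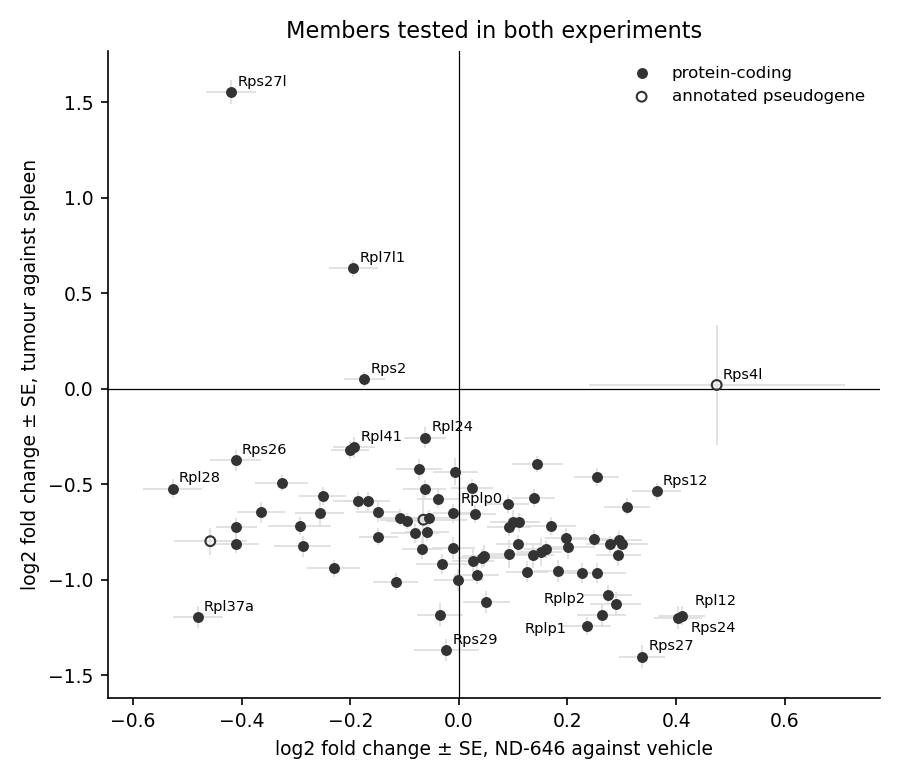
Log2 fold change ± SE of the members tested in both experiments, except 1, ND-646 against vehicle (horizontal) and tumour against spleen (vertical, TMM scaling). Open circles are annotated pseudogenes. Rps27, Rps24 and Rpl12 lie at the lower right, Rps27l, Rpl7l1 and Rps2 at the upper left, and over 80 protein-coding members Pearson's r was -0.39. With CD8 identity scaling the vertical median is 0.14 instead of -0.77.

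Features of the genes were set beside the log2 fold changes as a description. The members with a C and T run of at least 6 bases had a median log2 fold change of 0.04 with ND-646 (10 rose and 8 fell of 32), and those with a shorter run of -0.03 (9 rose and 12 fell of 29). In tumours the medians were -0.79 (31 members) and -0.77 (29 members) with TMM scaling. Across members, the Spearman correlation of the log2 fold change with GC content was -0.05 with ND-646 (81 members) and -0.01 in tumours (80 members). With the share of near-identical copies it was -0.03 and 0.04, and with coding length -0.08 and 0.27. With the mean level (log2 CPM) the Spearman correlation was 0.29 with ND-646 and -0.07 in tumours, and Pearson's r was 0.15 and -0.44; the level is itself computed from the libraries compared.

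Of the ribosomal proteins that the symbol rule leaves out, Fau is made as a fusion with a ubiquitin-like protein, Rack1 belongs to the small subunit, and Rpl36al belongs to the large subunit. With ND-646, Rack1 rose by 0.12 ± 0.04 and Rpl36al by 0.10 ± 0.04 on the log2 scale, and Fau had a log2 fold change of -0.06 ± 0.04 (edgeR's quasi-likelihood test, adjusted p = 0.231). Without ND-646 library 1, vehicle library 1, and several other single libraries the calls of Rack1 and Rpl36al were lost, and that of Rpl36al also with DESeq2's size factors (adjusted p = 0.0657). In tumours all 3 fell with TMM scaling, Fau by 0.77 ± 0.07, Rack1 by 0.63 ± 0.05 and Rpl36al by 0.46 ± 0.06 on the log2 scale, and with CD8 identity scaling they turned to 0.13, 0.29 and 0.45.

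Other translation genes were described by lists chosen with these data already known. Among 16 mRNAs of elongation factors and others that carry the same oligopyrimidine start, 4 rose and 8 fell with ND-646. Tpt1, a small translationally controlled protein, rose there by 0.42 ± 0.05 on the log2 scale, and Hnrnpa1, an RNA-binding splicing factor, fell by 0.60 ± 0.05. In tumours 5 rose and 7 fell with TMM scaling, a median of -0.02, and Tpt1 (2371 ± 122 CPM in tumour and 4503 ± 84.8 CPM in spleen libraries, SD, n = 3 each) and Eef1b2, a subunit of the elongation factor exchange complex, fell by 0.93 ± 0.05 and 0.83 ± 0.05 on the log2 scale. With CD8 identity scaling these 2 became -0.01 and 0.08. Of 31 initiation factors, 8 rose and 15 fell with ND-646, and 22 rose and 5 fell in tumours with TMM scaling, with medians of -0.09 and 0.39. The share of all genes called was 29.8% higher and 26.5% lower with ND-646, and 43.6% higher and 40.2% lower in tumours. With CD8 identity scaling 30 of the 31 were higher in tumours (median 1.30), where 67.8% of all genes were. Eif4e, which binds the mRNA cap, stood at 143 ± 6.84 CPM in tumour and 54.2 ± 1.35 CPM in spleen libraries (SD, n = 3 each; log2 fold change 1.40 ± 0.05). Eif5a, needed for peptide bonds at difficult sequences, fell with ND-646 by 0.47 ± 0.04 on the log2 scale and rose in tumours by 0.95 ± 0.05.

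Of 21 genes of mTORC1 and of the control of oligopyrimidine mRNAs, 7 rose and 5 fell with ND-646, and in tumours 8 rose and 11 fell of 20 tested with TMM scaling. For this and the following lists, the shares of all genes called with ND-646 were 29.8% higher and 26.5% lower. In tumours with TMM scaling they were 43.6% higher and 40.2% lower. Eif4ebp1, the cap-binding inhibitor that mTORC1 phosphorylates, rose in both: 177 ± 15.1 CPM with ND-646 and 106 ± 7.01 CPM with vehicle (SD, n = 4 each), and 45.0 ± 5.96 CPM in tumour and 6.80 ± 0.893 CPM in spleen libraries (SD, n = 3 each). Rps6kb2, an S6 kinase, fell in both, by 0.36 ± 0.04 and 1.40 ± 0.09 on the log2 scale. Among 17 chaperones and importers of ribosomal proteins, 3 rose and 8 fell with ND-646 (Grwd1, which binds Rpl3, fell by 0.39 ± 0.05), and 8 rose and 6 fell in tumours with TMM scaling (Ipo7, an importer, rose by 1.02 ± 0.05). Among 15 genes of ribosome rescue, 4 rose and 2 fell with ND-646, and 4 rose and 8 fell in tumours with TMM scaling. Gtpbp2, which helps to resolve stalled ribosomes, stood at 517 ± 25.5 CPM with ND-646 and 294 ± 9.39 CPM with vehicle (SD, n = 4 each; log2 fold change 0.82 ± 0.04), and fell in tumours by 1.11 ± 0.05 on the log2 scale with TMM scaling, a call lost with CD8 identity scaling (-0.20, adjusted p = 0.0999).

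Of 20 p53 targets, 5 rose and 9 fell with ND-646 and 12 rose and 7 fell in tumours with TMM scaling, beside the values of Rps27l given above. The shares of all genes were 29.8% higher and 26.5% lower with ND-646, and 43.6% and 40.2% in tumours. With CD8 identity scaling 16 of the 20 were higher and 3 lower in tumours, as were 14 and 0 of the 16 mRNAs with the oligopyrimidine start, 14 and 1 of the 20 tested genes of mTORC1 and its control, 17 and 0 of the 17 chaperones and importers, and 12 and 1 of the 15 rescue genes, where 67.8% of all genes were higher and 13.0% lower. Mdm2, the p53 inhibitor that Rpl5 and Rpl11 bind, fell with ND-646 by 0.39 ± 0.04 on the log2 scale. Fibroblast mRNA was present in the tumour libraries in which Rps27l and Rpl7l1 were higher, and its part in their levels was not tested.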

How the data were processed

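Estimated counts were deposited as 1 table for each experiment, over 55291 gene symbols in both. Per the submitters' processing notes, STAR, Salmon and DESeq2 are named, with no roles. The genome build, the annotation and any use of strand were not given in the sources used here. The values are not normalized (totals of 23.5 to 33.8 M and 19.6 to 21 M counts per library, M being 1e+06) and were rounded for tests. Samples were grouped by title, and all columns were matched. Replicates may be technical, so p-values measure only the spread between these libraries. No replicate pair agreed within sampling noise.

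The 2 comparisons were fitted separately, each on its table. The robust quasi-likelihood test of edgeR 4.0.16 (R 4.3.3) was used after filterByExpr and TMM scaling, adjusted by Benjamini-Hochberg over all genes tested at 0.05. CPM are counts per 1e+06 of the TMM-scaled library. Intervals are at 95%. Of the 89 members, 84 and 83 passed the count filter. Coding sequences and copies came from GENCODE M21 (blastn 2.17.0+), aligned with Biopython 1.88, and promoters from RefSeq (GRCm38.p6). Figures were drawn with matplotlib 3.10.9. The scripts were tested on simulated data.

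The members and the 14 gene lists (211 genes) were chosen with earlier results of these data known. In each comparison the text names the 4 highest and 4 lowest log2 fold changes, the 2 smallest p-values in each direction, paralogs with their parents, the stalk, Rpl5, Rpl11, Rps6, Rpsa, the 3 highest and 3 lowest levels per length, and members of counts of 5 or fewer. Further genes were chosen after their values were seen. Of each translation list it names from the 2 smallest p-values. Alternatives were DESeq2 1.42.0, limma-voom (limma 3.58.1), other scalings and filters, a 1.2-fold minimum, adding pseudogene copies, a replicate block and leaving out libraries; adding near-identical copies and leaving out pairs of ND-646 libraries were chosen after seeing the data. Values of 1 member and of 2 genes outside the rule are not reported here; counts and medians over the members include that member.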

Additional observations from a re-analysis of the deposited data

Results flagged for a closer look

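In groups of 4 libraries, 58 sets of values of named members were checked for 1 library far from the others, and 2 were found, where chance gives about 1 in 20. Both were vehicle library 2. Rpl11 stood at 1073 CPM there, against 1029 to 1035 CPM in the other vehicle libraries, a gap of 0.855 of the group's range. Rpl7 stood at 1655 CPM, against 1586 to 1594 CPM (0.879 of the range). The share of counts in ribosomal proteins was also highest in that vehicle library, at 10.3%. Both members remained lower with ND-646 when the library was left out.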

How the results depend on the processing

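With ND-646, 51 to 57 members were called when single libraries were left out, and 53 to 59 under the alternatives other than the fold minimum, which asked for a change beyond 1.2-fold and left 12 members (3 higher, 9 lower) and 49 of the 118 listed genes. The members' median was 0.0671 without ND-646 libraries 2 and 3 and -0.0523 without libraries 1 and 4. Members near 0 changed sign: Rplp0 was 0.0187 with library totals and 6.38e-05 without ND-646 libraries 2 and 3. Without libraries 1 and 4, Rpl39l was -0.228, Rpl5 -0.0262 and Rps6 -0.0260. Leaving out single libraries gave -0.137 to 0.509 for Rpl39l, -0.0114 to 0.0365 for Rpl3, -0.0390 to 0.00148 for Rplp0, -0.0143 to 0.0526 for Rpl5 and -0.00116 to 0.0642 for Rps6. The call of Rps4x (adjusted p = 0.0407) was lost under 11 alternatives, and that of Rpl10 without ND-646 library 1, library 4 or both. The calls of Rack1 and Rpl36al were lost under 5 and 10 alternatives.

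In tumours, the members' median was -0.709 with DESeq2's size factors and with its Wald test. Rps2 was then higher (0.11, adjusted p = 0.0194 and 0.00815), as it was without tumour library 1 (0.09, adjusted p = 0.0241). Rps4l was -0.000165 with a minimum of 1 CPM and -0.162 to 0.248 when single libraries were left out. Scaling by CD8 identity genes left 37 members called, 29 higher and 8 lower, with a median of 0.142. It turned Rpl6l to 0.227, Rpl22l1 to 0.296, Rpl3 to 0.393, Rpl7 to 0.323, Rpl10 to 0.521, Rpl22 to 0.128, Rpl39 to 0.129, Rps4x to 0.222, Rplp0 to 0.258, Rpl11 to 0.187, Rps6 to 0.0327, Rpsa to 0.340, Rps3a2 to 0.111, Rpl13a to 0.0369, Rpl41 to 0.604, Rack1 to 0.286, Fau to 0.130, Rpl36al to 0.452 and Eef1b2 to 0.0795. The cause was not tested.

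The labels give groups the same replicate numbers, but correlations of same-numbered deviations ran from -0.121 to 0.0659, so the numbers were not taken as a pairing. With the replicate number as a block, 53 members were called with ND-646 and 81 in tumours.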
